A study of Mus musculus with 4 samples.

Results

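The Ikaros family comprises the 5 zinc finger transcription factor genes Ikzf1, Ikzf2, Ikzf3, Ikzf4 and Ikzf5, which encode Ikaros, Helios, Aiolos, Eos and Pegasus. They were taken by gene symbol from the table of 53379 genes, and each symbol matched 1 row. RNA was sequenced from group 3 innate lymphoid cells (ILC3s) of the small intestinal lamina propria in mixed bone marrow chimeras, to look for cell-intrinsic targets of Brg1, the ATPase of the BAF chromatin-remodeling complex encoded by Smarca4. Bone marrow from Thy1.2Rag1-/-Smarca4f/f donors and from Thy1.1Thy1.2Rag1-/-Smarca4f/f donors that also carried a Cre transgene, mixed in equal numbers, was given to sublethally irradiated Rag2-/-Il2rg-/- mice. After 6 to 7 weeks, Thy1.2highCD45low cells were sorted as Thy1.1- control ILC3s, here called Brg1-sufficient, and Thy1.1+ ILC3s, here called Brg1-deficient, with 2 libraries for each. All donors lacked Rag1 and carried the floxed Smarca4 alleles, so the groups differed by the Cre recombinase and by the Thy1.1 allele. The sources used here do not say whether cells of several chimeras were pooled for a library.

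Ikaros family proteins bind DNA through zinc fingers near the amino terminus and pair with one another through a separate group of fingers at the carboxyl terminus. In lymphocytes they recruit the NuRD corepressor complex, and Ikaros has also been found in complexes with the BAF remodeler. Ikaros is needed for the lymphoid lineages as a whole, Aiolos for B cell maturation and for the silencing of Il2 in Th17 cells, Helios and Eos are known from regulatory T cells, and Pegasus is a more distant relative that prefers another DNA sequence.

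The coding sequences show how closely the members are related where they touch DNA. The search used the annotated principal transcript of each gene (GENCODE M21, GRCm38) and the C2H2 pattern of a cysteine pair and a histidine pair. It found 6 fingers in Ikzf1, Ikzf2, Ikzf3 and Ikzf4, of which 4 lay in the first and 2 in the last part of the protein, and 5 fingers in Ikzf5, of which 3 and 2 lay there. Fingers 2 and 3 of Ikaros, which make the main contacts with the core motif, and the best matching pair of neighbouring fingers in each other member are given below as 147 coding bases on the sense strand, from 5′ to 3′. The pair is fingers 2 and 3 in Ikzf2, Ikzf3 and Ikzf4, but fingers 1 and 2 in Ikzf5. Whether the Ikzf5 pair corresponds to fingers 2 and 3 of Ikaros was not tested. Capitals mark the codons of the cysteines and histidines that hold zinc.
Ikzf1: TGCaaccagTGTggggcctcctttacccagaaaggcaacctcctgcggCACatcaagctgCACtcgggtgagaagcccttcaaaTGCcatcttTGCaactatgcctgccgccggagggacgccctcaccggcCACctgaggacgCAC
Ikzf2: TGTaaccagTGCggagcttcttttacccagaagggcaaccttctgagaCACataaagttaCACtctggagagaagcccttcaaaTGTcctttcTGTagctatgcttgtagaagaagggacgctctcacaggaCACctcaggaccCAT
Ikzf3: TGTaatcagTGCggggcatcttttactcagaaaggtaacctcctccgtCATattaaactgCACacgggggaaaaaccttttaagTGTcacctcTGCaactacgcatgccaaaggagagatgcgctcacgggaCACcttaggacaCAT
Ikzf4: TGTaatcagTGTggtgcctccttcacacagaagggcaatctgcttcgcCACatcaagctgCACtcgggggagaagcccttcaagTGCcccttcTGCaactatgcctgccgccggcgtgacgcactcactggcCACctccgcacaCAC
Ikzf5: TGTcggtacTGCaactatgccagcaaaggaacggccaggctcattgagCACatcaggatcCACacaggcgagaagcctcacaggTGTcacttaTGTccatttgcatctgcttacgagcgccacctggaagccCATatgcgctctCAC
The Ikzf1 stretch lies in exon 5 at chr11:11754024-11754170 on the plus strand. Those of Ikzf2 (chr1:69570497-69570643), Ikzf3 (chr11:98488856-98489002) and Ikzf4 (chr10:128640145-128640291) lie in exon 5 of their genes on the minus strand. The Ikzf5 stretch is split over exon 3 (chr7:131393755-131393821) and exon 4 (chr7:131392501-131392580), also on the minus strand. Of its 49 codons, Ikzf3 and Ikzf4 shared the encoded amino acid with Ikzf1 at 47 and Ikzf2 at 46, while Ikzf5 did so at 19. At the level of bases the stretch of Ikzf4 was 83.7%, of Ikzf2 78.2%, of Ikzf3 76.2% and of Ikzf5 47.6% the same as that of Ikzf1. The deposited values are sums over the transcripts of a gene, so forms with and without these fingers, which alternative splicing of Ikzf1 is known to make, were not separated.

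The values were FPKM, fragment counts scaled to transcript length and to the mapped fragments of a library. Depth is not known from them, and the sorted values were the same to within 1% across the 4 libraries at 99.3% of the ranks with a mean FPKM above 1, as after quantile normalization, so that a difference in total RNA between the groups could not be seen. As a check of the labels, Smarca4 had 17.1 and 16.7 FPKM with Brg1 and 9.98 and 9.03 FPKM in the deleted cells. The mean was 56.2% of the control mean, a log2 fold change of -0.77 that did not pass the test (adjusted p = 0.153, limma). A gene-level FPKM does not measure how complete the deletion was. The paper reports efficient deletion of Brg1 in ILC3s of the Rag1-/- mice by RT-PCR and flow cytometry. Of the 10 ILC3 markers, 3 had both Brg1-deficient libraries below both Brg1-sufficient libraries and 2 had them above. This was so of 20.2% and 24.4% of all genes tested. Il23r was at 268 and 247 FPKM in Brg1-sufficient and 227 and 209 FPKM in Brg1-deficient ILC3s. Il1r1 was at 106 and 128 FPKM in the former and 145 and 147 FPKM in the latter.

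Ikzf3 was the member with the highest level in Brg1-sufficient ILC3s and the one with the largest difference between the groups. Aiolos mRNA stood at 63.9 and 67.1 FPKM in control ILC3s, as against 37.4 and 34.6 FPKM after deletion of Smarca4. The groups did not overlap, and their distance was wide against the gap between libraries of a group. The Brg1-deficient mean of 36.0 ± 1.99 FPKM (SD, n = 2) was 55.0% of the Brg1-sufficient mean of 65.4 ± 2.26 FPKM (SD, n = 2). On the log2(FPKM + 1) scale, on which all fold changes are given, Ikzf3 differed by -0.84 (standard error 0.139, 95% interval -1.19 to -0.50). That interval corresponds to 43.7% to 70.9% of the control value. The unadjusted p was 0.00133 in limma and the adjusted p was 0.102 after Benjamini-Hochberg adjustment over 14739 genes, so Ikzf3 did not pass an adjusted p of 0.05. It ranked at place 189 of these genes by p. Among genes that exceeded a mean of 5 FPKM, 7.88% had a larger fold change in either direction. Leaving out each library in turn left its log2 fold change between -0.90 and -0.79.

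**Figure D1:**
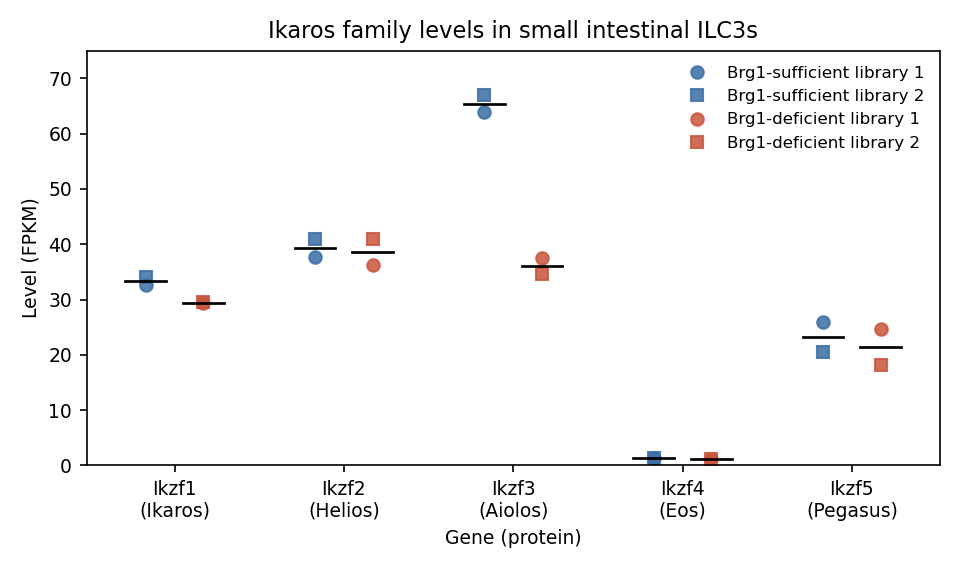
FPKM of the 5 Ikaros family genes (horizontal axis) in each of the 4 libraries (points, linear vertical axis from 0), with the mean of each group as a black line. Ikzf3 lies at 63.9 and 67.1 FPKM in control cells and 37.4 and 34.6 FPKM in Brg1-deficient cells, while the points of the groups lie close together in the other members.

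The other 4 members differed less. Ikzf1, the founding member, had 32.6 and 34.1 FPKM in control ILC3s, compared with 29.4 and 29.5 FPKM in Brg1-deficient ILC3s. Its groups did not overlap, and the mean after deletion was 88.3% of that in controls. For Ikzf1 the log2 fold change came to -0.17 (standard error 0.141, adjusted p = 0.644 from limma), with an interval from -0.53 to 0.18.

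Ikzf2, which encodes Helios, had 37.8 and 41.0 FPKM in control ILC3s, compared with 36.3 and 41.0 FPKM in Brg1-deficient ILC3s. The groups overlapped, and their means of 39.4 and 38.6 FPKM were closer together than the libraries of either group. The log2 fold change of Ikzf2 was -0.03 (adjusted p = 0.954 from limma), and its interval from -0.41 to 0.35 leaves out a difference of the size seen for Ikzf3.

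Ikzf4, which encodes Eos, a partner of Foxp3 in regulatory T cells, was just above the limit of a mean of 1 FPKM for testing. It had 1.31 FPKM in each control library, compared with 1.17 and 1.14 FPKM after deletion. The groups did not overlap, but the log2 fold change was -0.10 with an interval from -0.88 to 0.68 (adjusted p = 0.916 from limma), and a pseudocount of 1 understates the change of a gene at this level. In protein-coding genes tested, the level of Ikzf4 was above that of only 6.39% to 8.72% in each library.

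Ikzf5, which encodes Pegasus, had 26.0 and 20.5 FPKM in control ILC3s, compared with 24.6 and 18.2 FPKM in Brg1-deficient ILC3s. The libraries numbered 1 lay above those numbered 2 in both groups, and the gap between them was wider than that between the group means. For Ikzf5 the log2 fold change was -0.12 with an interval from -0.67 to 0.43 (adjusted p = 0.851 from limma), and on average library 1 was higher than library 2 by 0.37 on the log2 scale.

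All 5 members passed the filter on low values, and none passed an adjusted p of 0.05 in limma, which 0.305% of all genes tested passed. At an unadjusted p under 0.05 in limma there was 1, Ikzf3, and 12.6% of all genes tested were below that limit. By the more permissive criteria that the study's methods give for gene lists (a p under 0.05, an FDR under 0.4, a group mean of over 5 FPKM, and group means apart by more than 0.5 on the log2 scale), Ikzf3 was lower and none was higher among the 4 members with a mean FPKM above 5. Of all 9095 genes at that level, 7.08% were lower and 6.25% were higher by these criteria. The study's methods name edgeR for differential expression, while the p and FDR used here came from limma, so these calls are not the study's own. Both Brg1-deficient libraries lay below both Brg1-sufficient libraries in 3 members, Ikzf1, Ikzf3 and Ikzf4, and in none were they above. This was so of 20.2% (lower) and 24.4% (higher) of all genes tested. The median log2 fold change was -0.12 over the 5 members and 0.03 over all genes tested.

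**Figure D2:**
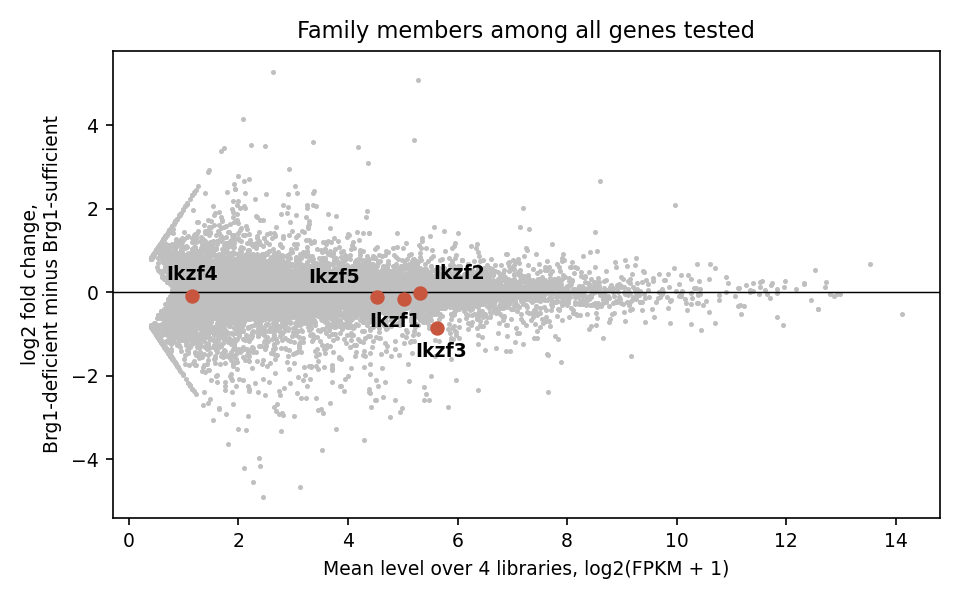
Log2 fold change of each of the 14739 genes tested (Brg1-deficient minus Brg1-sufficient, vertical axis) against its mean level over the 4 libraries on the log2(FPKM + 1) scale (horizontal axis). The members are the red points: Ikzf3 lies at -0.84, and the other 4 lie between -0.17 and -0.03.

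Since FPKM is given per length of transcript, levels were set side by side between the members. The cDNA was amplified by PCR before it was fragmented, and how evenly this recovered different transcripts was not tested. In Brg1-sufficient ILC3s the order was Ikzf3, Ikzf2, Ikzf1, Ikzf5 and Ikzf4, and no neighbours in this order overlapped over the libraries. Ikzf3 was 1.69 and 1.64 times as high as Ikzf2 and 1.96 and 1.97 times as high as Ikzf1 in the 2 libraries. In Brg1-deficient ILC3s, Ikzf3 and Ikzf2 overlapped, with ratios of 1.03 and 0.845, and the order of Ikzf1, Ikzf5 and Ikzf4 below them was the same. Ikzf3 was then 1.27 and 1.17 times as high as Ikzf1. The log2 ratio of Ikzf3 to Ikzf1 differed by -0.68 and that to Ikzf2 by -0.83 between the groups. The ratios of the groups did not overlap, at an exact two-sided permutation p of 0.33, the smallest that 2 libraries against 2 can give. Among protein-coding genes tested, the level of Ikzf3 was above 86.6% and 87.2% in the Brg1-sufficient and above 77.5% and 76.0% in the Brg1-deficient libraries.

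The 5 genes together summed to 161.5 and 163.9 FPKM with Brg1 and to 128.9 and 124.4 FPKM without it, or 77.8% of the control mean. Without Ikzf3 the sum was 97.6 and 96.9 against 91.5 and 89.8 FPKM, or 93.2%. Ikzf3 held 40.2% ± 0.961 (SD, n = 2) of the summed FPKM in the Brg1-sufficient and 28.4% ± 0.865 (SD, n = 2) in the Brg1-deficient libraries. The share of Ikzf2 was 23.4% and 25.0% against 28.2% and 32.9%, and that of Ikzf1 was 20.2% and 20.8% against 22.8% and 23.7%. The shares of the groups did not overlap in any of these 3 genes (exact permutation p = 0.33 for each, the smallest possible). A share rises when another falls, and the FPKM of Ikzf1 and Ikzf2 itself was not higher in Brg1-deficient ILC3s. The share of Ikzf5, at 16.1% and 12.5% against 19.1% and 14.6%, overlapped between the groups (exact permutation p = 0.67). Ikzf4 held below 1% in each library, from 0.799% to 0.916%.

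**Figure D3:**
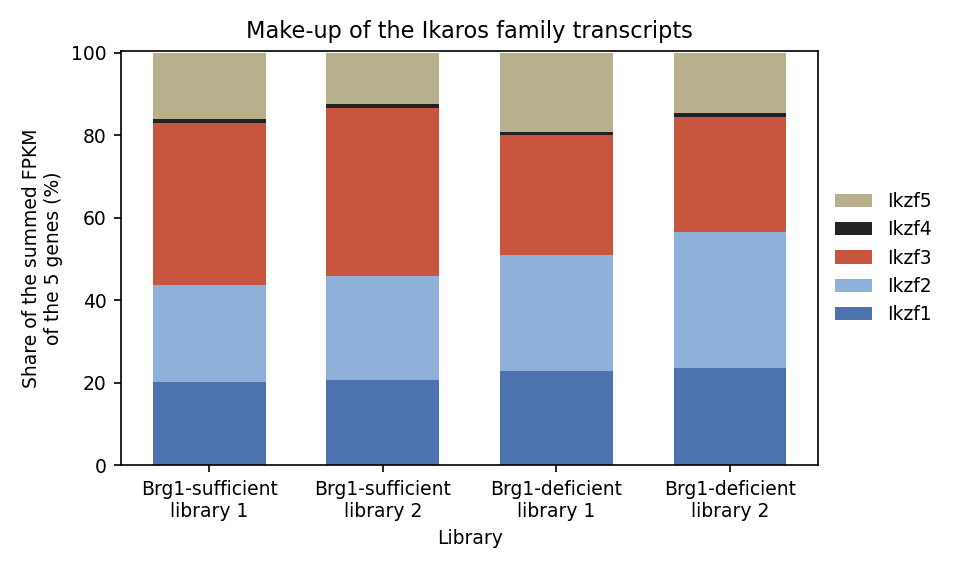
Share of each of the 5 genes in their summed FPKM (vertical axis, percent) in each of the 4 libraries (horizontal axis), as stacked bars. The share of Ikzf3 (red) is 39.5% and 40.9% in Brg1-sufficient and 29.0% and 27.8% in Brg1-deficient ILC3s.

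The genes whose pattern over the 4 libraries was most like that of a member were looked for among 8089 protein-coding genes with a mean FPKM above 5, by the Euclidean distance of log2(FPKM + 1) after centring each gene. With 4 libraries this is a description. Nearest to Ikzf3 were Aldoa, which encodes a glycolytic aldolase, with a distance of 0.045, Ttc7 with 0.054 and Spata6 with 0.063. Aldoa had 240 and 245 FPKM in controls, compared with 139 and 133 FPKM after deletion. Nearest to Ikzf1 were Git2 (0.006), Map4k1, a kinase of lymphocyte receptor signalling (0.014), and Mgat2 (0.023). Nearest to Ikzf4 were Gnpda2 (0.011), Entpd5 (0.014) and Rad23b (0.023).

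On the chromosomes (GRCm38), Ikzf3 lies on the minus strand of chromosome 11 from 98464902 to 98546031, between Grb7 and Zpbp2. Grb7, 9.5 kb away, was at 3.02 and 2.14 FPKM against 1.25 and 1.77 FPKM, or -0.51 on the log2 scale (limma, adjusted p = 0.559). Zpbp2, 5.1 kb away, was at 2.53 and 1.41 against 1.49 and 0.90 FPKM, a log2 fold change of -0.42 (adjusted p = 0.653). The snRNA gene Gm25106 lies within Ikzf3 on the same strand and was at 4.58 and 3.10 FPKM against 0 and 1.41 FPKM. Its log2 fold change was -1.62 (limma, adjusted p = 0.276). Reads of Gm25106 and of Ikzf3 transcripts may not be told apart where they overlap, so this value may not be independent of Ikzf3. Grb7, Zpbp2 and Gm25106 were far below Ikzf3 in level.

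Ikzf1 lies on chromosome 11 from 11685003 to 11772926, and its neighbour Fignl1, 14.5 kb away, differed by 0.20 on the log2 scale (limma, adjusted p = 0.834). The other neighbour of Ikzf1, 4930512M02Rik, and both neighbours of Ikzf2 (chromosome 1, 69531214 to 69687245), Erbb4 and Spag16, were below the limit for testing. Ikzf4 lies on chromosome 10 from 128630843 to 128645991 beside the ribosomal protein gene Rps26, 4.1 kb away. Rps26 was at 228 and 241 FPKM against 178 and 198 FPKM, a log2 fold change of -0.32 (adjusted p = 0.427). Suox, on the other side of Ikzf4, differed by -0.71 (adjusted p = 0.407).

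Ikzf5 lies on the minus strand of chromosome 7 from 131388652 to 131410521. Its annotated span overlaps that of Pstk on the opposite strand, which was at 22.8 and 20.1 FPKM against 25.1 and 26.5 FPKM and so close to Ikzf5 in level. Acadsb begins 80 bases beyond Ikzf5 and was at 40.7 and 34.8 against 44.9 and 42.5 FPKM. The sources used here do not say that reads were counted by strand, so reads of Ikzf5 and Pstk may not be told apart where they overlap. 2310057M21Rik, on the other side of Ikzf5, differed by 0.41 on the log2 scale (limma, adjusted p = 0.608).

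The corepressors that Ikaros proteins recruit were measured by 17 genes of NuRD, Sin3 and CtBP, all of which were tested. None passed an adjusted p of 0.05 in limma, and 1 had an unadjusted p under 0.05, which 12.6% of all genes tested had. That gene was Chd4, which encodes Mi-2β, the NuRD ATPase that copurifies with Ikaros. Chd4 had 26.2 and 27.8 FPKM in controls, compared with 19.0 and 18.8 FPKM after deletion, which is 69.9% of the control mean. Its groups did not overlap, with a difference of -0.49 on the log2 scale (standard error 0.147, interval -0.86 to -0.12, adjusted p = 0.267 from limma). By the permissive criteria Chd4 was lower and none was higher among the 15 corepressor genes with a mean FPKM above 5, a share close to the 7.08% of all genes at that level. Its relative Chd3 was at 22.6 and 25.4 against 29.6 and 26.5 FPKM, with a log2 fold change of 0.21 (adjusted p = 0.623). The corepressor genes ranged from -0.49 to 0.35 with a median of -0.10, and the median of all genes tested was 0.03. The deacetylase gene Hdac1 had a log2 fold change of 0.03 with an interval from -0.32 to 0.38.

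Enzymes that modify Ikaros proteins or mark them for decay were measured by 11 genes. Casein kinase 2 phosphorylates Ikaros and protein phosphatase 1 removes the phosphates, while the ligase of cereblon, Ddb1, Cul4a or Cul4b and Rbx1 is the one through which thalidomide analogs degrade human Ikaros and Aiolos. None of the 11 had an adjusted p under 0.05 in limma, which 0.305% of all genes tested had. None had an unadjusted p under 0.05 either, beside 12.6% of all genes tested. Their log2 fold changes lay between -0.23 and 0.26 with a median of 0.02, and the groups overlapped in 10 of 11. Both Brg1-deficient libraries lay below both Brg1-sufficient libraries in 0 and above them in 1, beside 20.2% and 24.4% of all genes tested. Crbn, the gene of cereblon, was at 51.0 and 33.3 against 43.2 and 38.9 FPKM, a log2 fold change of -0.01 with an interval from -0.59 to 0.58.

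Genes that family members are reported to regulate in lymphocytes were found on both sides. Of 15 such genes 12 were tested, and Igll1, Vpreb1 and Cd8a were below the limit. At an adjusted p of 0.05 in limma, 1 was lower (Ifng) and 1 was higher (Il2), beside 0.305% of all genes in either direction, and 8 had an unadjusted p under 0.05, beside 12.6% of all genes. Neither Ifng nor Il2 passed without the filter on low FPKM, without the trend or without any 1 library, settings in which limma called 0 genes of the whole table. By the permissive criteria, 5 were lower and 3 were higher of 11 with a mean FPKM above 5, against 7.08% and 6.25% of all genes at that level. The median log2 fold change of the 12 was -0.28. The list was chosen with earlier results of these data known, so its counts are no test of the family's targets. It holds Tbx21 and Hes1, which the paper reports as changed in Brg1-deficient cells. Ifng and Tbx21 are also in the NKp46+ ILC3 list below.

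Il2, which Aiolos silences in Th17 cells, had 4.58 and 7.98 FPKM in controls, compared with 59.3 and 59.6 FPKM after deletion. Whether Il2 or any other gene of this list depends on Ikzf3 in these cells was not tested. The log2 fold change of Il2 was 3.09 (standard error 0.256, adjusted p = 0.0383 from limma). Hes1 and Dtx1, Notch targets that Ikaros represses in thymocytes, had higher values after deletion without passing the test. Dtx1 was at 12.1 and 12.4 against 15.8 and 22.4 FPKM, a log2 fold change of 0.59 (interval 0.05 to 1.12, adjusted p = 0.359), and Hes1 was at 26.7 and 24.3 against 41.0 and 78.7 FPKM, a difference of 1.13 (adjusted p = 0.245).

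Ifng and Tbx21, which Ikaros silences in Th2 cells, had log2 fold changes of -2.80 (limma, adjusted p = 0.0386) and -1.54 (adjusted p = 0.119), of which that of Ifng passed the test. Ifng was at 22.8 and 37.3 against 3.42 and 3.22 FPKM. Myc, which Ikaros and Aiolos repress in pre-B cells, was at 10.5 and 8.97 against 5.04 and 4.83 FPKM. This was 50.7% of the control mean and -0.85 on the log2 scale (interval -1.33 to -0.37, adjusted p = 0.171). Dntt, the gene of terminal transferase, which Ikaros regulates in lymphocyte precursors, was at 7.54 and 10.6 against 0.35 and 2.21 FPKM. Its groups did not overlap, with a log2 fold change of -2.25 (adjusted p = 0.142).

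Bcl6, a gene that Aiolos is reported to activate, was at 5.29 and 6.01 against 2.53 and 3.59 FPKM, or -0.72 on the log2 scale (limma, adjusted p = 0.325). Il7r, the receptor gene that Ikaros keeps active, was at 433 and 542 against 486 and 583 FPKM, and its groups overlapped. Ahr, whose activity Ikaros is reported to limit in ILC3s, was at 10.6 and 9.29 against 6.94 and 9.76 FPKM and overlapped too, with a log2 fold change of -0.24 (interval -0.80 to 0.32). Groups of Il10 and of Cdkn1b overlapped as well.

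**Figure D4:**
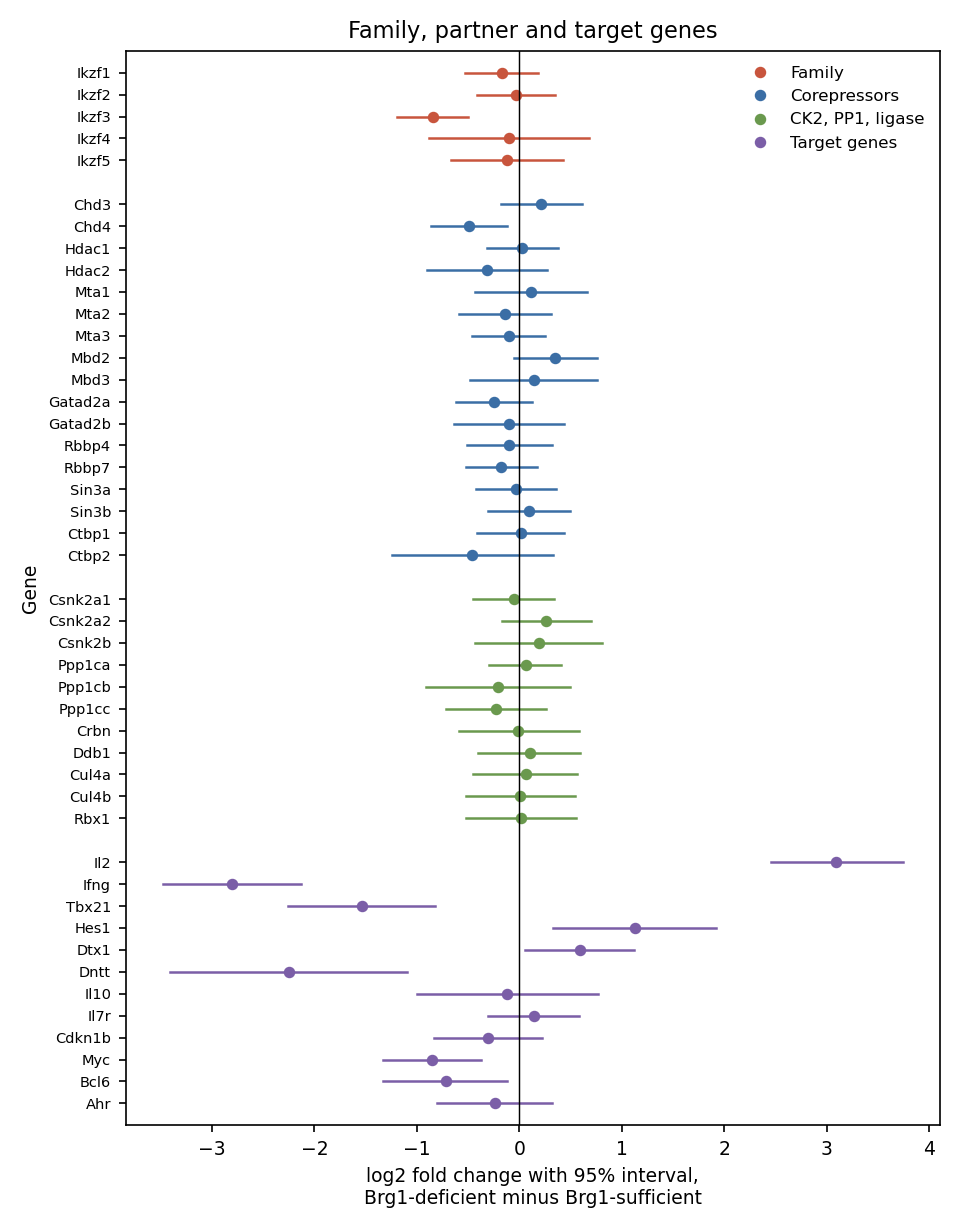
Log2 fold change (Brg1-deficient minus Brg1-sufficient, horizontal axis) with its 95% interval from limma for each gene tested of the family, the corepressors, the casein kinase 2, protein phosphatase 1 and cereblon ligase genes, and the reported target genes (rows). The intervals of Ikzf3 (-1.19 to -0.50), Chd4 (-0.86 to -0.12) and 8 target genes lie to one side of 0.

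Markers of several lymphocyte subsets also differed between the groups. From the RNA of sorted bulk cells alone, fewer cells of a type and less RNA per cell cannot be told apart. By flow cytometry of mixed chimeras, the paper found a smaller share of NKp46+ cells among Brg1-deficient than control ILC3s of the small intestine. By RT-PCR of subsets sorted from mice that were not chimeras, it found less Tbx21 mRNA in Brg1-deficient NKp46- ILC3s. Tbx21 mRNA was comparable between genotypes in NKp46+ ILC3s there. The paper describes Rag1-/- mice as lacking T and B cells. The counts of genes below and above that follow stand beside 20.2% and 24.4% of all genes tested. Of the 6 genes of the NKp46+ ILC3 list, 3 (Ncr1, Tbx21 and Ifng) had both Brg1-deficient libraries below both Brg1-sufficient libraries and 2 had them above. The summed level of that list was 184 to 217 FPKM in Brg1-sufficient and 199 to 225 FPKM in Brg1-deficient libraries. Ncr1 was at 17.0%, Tbx21 at 21.3% and Ifng at 11.1% of the control mean. Of these, Ncr1 (adjusted p = 0.033 from limma) and Ifng passed the test. The 2 genes above were Cxcr3 and Klrk1. Klrk1 was the highest gene of the list, at 105 and 113 against 165 and 190 FPKM. For CCR6+ ILC3s, 3 of 6 genes (Ccr6, Nrp1 and Cd4) were below and 2 above, and the sum was 923 to 1040 against 2224 to 2636 FPKM. Il17f alone was at 555 and 421 against 2279 and 1852 FPKM and passed the test (adjusted p = 0.0386 from limma).

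Of the ILC2 list, 9 of 10 genes were tested, and 8 of them were below and 1 above in both Brg1-deficient libraries. The sum over the 10 genes was 438 and 246 FPKM in controls, compared with 124 and 155 FPKM after deletion, and Il13 was listed at 0 in both of the latter. Of the 6 T cell genes, 4 were tested and 3 were below, with sums of 56.4 and 22.1 against 4.48 and 12.2 FPKM. For NK cells and ILC1s, 3 of 7 genes tested were below and 2 above, the sum was 234 and 421 against 498 and 283 FPKM, and Eomes was below 1 FPKM in each library.

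Aiolos is a B cell factor, and the B cell genes Cd79a, Ms4a1, Pax5 and Ebf1 were below 1 FPKM in every library. Cd79b was at 8.68 and 10.0 against 1.03 and 0.99 FPKM, a log2 fold change of -2.36 that passed the test (limma, adjusted p = 0.0386). Of the myeloid list 1 of 4 genes tested was below and none above, and the sums were 98.5 and 224 against 74.7 and 210 FPKM, and those of the epithelial list stayed between 2.80 and 4.33 FPKM. The part of these subsets in the level of Ikzf3 was not tested.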

How the data were processed

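The members, the gene lists and the tests were chosen with earlier results of these data known. Poly(A) RNA of sorted ILC3s was sequenced in 4 libraries. The authors mapped reads to GRCm38.p5 with STAR 2.5, quantified genes with RSEM 1.2 on GENCODE M16 and deposited FPKM per gene for each library, from which the depth is not known. The text does not name the step that made the distributions of the libraries equal. Each column was matched to its library through the genotype and number in its name.

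The 14739 genes whose mean exceeded 1 FPKM in at least 1 group were compared on log2(FPKM + 1) with limma 3.58.1 (lmFit, eBayes with a trend, two-sided) in R 4.3.3 and Benjamini-Hochberg adjustment over all of them. With 2 libraries against 2, the spread is largely the one limma borrows from other genes. The methods call the libraries biological duplicates without naming the animals, so p-values measure the spread between these libraries, which may be technical. The code was tested on simulated data. Sequences and positions came from GENCODE M21 on GRCm38. The named genes were the members, Smarca4, list genes with an unadjusted p under 0.05 and a mean FPKM above 5, the nearest protein-coding genes on each side, the 3 genes nearest in pattern to members without overlap, and cell type markers. Genes of these lists named beside them were chosen after their values were seen. Alternatives covered the filter, the pseudocount, the trend, the scaling, the replicate number and each library. Isoform values and ATAC-seq were not analysed here. Some marker genes and details of the cross are not reported here.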

Additional observations from a re-analysis of the deposited data

How the results depend on the processing

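Ikzf3 was lower under each of the 11 alternatives, with log2 fold changes between -0.90 and -0.79 and adjusted p-values from limma between 0.0421 and 0.596. It passed an adjusted p of 0.05 under 1 of them, that with a replicate block (log2 fold change -0.84, adjusted p = 0.0421), which then counted 1 member as lower, as the permissive criteria did (1). Neither the labels nor the methods say that a number pairs libraries, so no pairing was assumed. Both groups were sorted from mixed chimeras, so a pairing by recipient mice is possible. Across genes the deviations of libraries that share a number correlated at -0.00039, which cannot exclude a replicate effect in single genes. The block gave 2 lower target genes in place of 1. With only genes of a mean FPKM above 5, which leaves out Ikzf4, the adjusted p of Ikzf3 was 0.0641. Without each library in turn, its values lay between -0.90 and -0.79, with adjusted p-values from 0.225 to 0.596, where a lone library is assumed to vary like the others. Leaving out a library turned the sign of Ikzf2 (-0.11 to 0.06) and of Ikzf5 (-0.33 to 0.09), neither of which passed the test, and gave 0 lower and 0 higher target genes. The other 2 members stayed between -0.20 and -0.09. No filter on low FPKM, and limma without trend, each gave 0 lower and 0 higher target genes. Under these settings and without any 1 library, 0 genes of the whole table were called, against 45 in the test as reported, 114 with only genes of a mean FPKM above 5 and 398 with the replicate block. The permissive criteria gave 1 lower corepressor gene and 5 lower and 3 higher target genes. The cause of these shifts was not tested. The share of Ikzf3 in the family sum was lower by 11.1 to 12.5 percentage points without each library. Depth limits the small differences of Ikzf1, Ikzf2, Ikzf4 and Ikzf5 to an unknown degree.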
